A study of Mus musculus with 2 samples.

Results

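The let-7 family of serum extracellular vesicles (EVs) was examined in iFIRKO and control mice. Members were chosen by name and comprised the 5p arms let-7a, let-7b, let-7c, let-7d, let-7e, let-7f, let-7g and let-7i together with miR-98-5p, which gave 9 of the 1847 miRNAs listed in both deposited tables. EVs are small vesicles bounded by a membrane, which most cell types shed into the circulation. iFIRKO mice carry Adipoq-CreERT2, a Cre recombinase driven by the adiponectin promoter of adipocytes and switched on by tamoxifen, and Insr flox/flox alleles, so that the insulin receptor is deleted in adipocytes. The labels give the genotype of the control mice as WT, whereas the methods of the study describe Insr flox/flox mice without Cre. Mice of both groups were male, were 7 weeks old, received 100 mg/kg tamoxifen by intraperitoneal injection on each of 5 days, and gave serum 3 days later. Each group had 1 library, prepared from pooled serum of several mice according to the methods, so no spread between animals could be measured and no test between genotypes was possible.

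The let-7 family is among the most conserved miRNA families of animals and was first found as a regulator of developmental timing in nematodes. A miRNA guides an Argonaute protein to messenger RNAs that pair with its seed, bases 2 to 8 from the 5′ end, and represses them. The let-7 family is known for repressing growth genes such as Hmga2 and Ras, for being blocked in its maturation by LIN28, and for acting on the insulin and PI3K pathway, in which Insr, Igf1r and Irs2 are described targets. No miRNA reports the deletion of Insr itself, so the genotypes could not be checked directly.

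The labels of the 2 tables are in doubt. The study checked some miRNAs by RT-PCR in single sera and describes them as increased in iFIRKO mice. In the deposited tables these 4 miRNAs had log2 ratios of -1.29 (miR-451a), -0.98 (miR-144-3p), -0.86 (miR-486a-3p) and -0.84 (miR-16-2-3p), and were thus lower in the table labelled iFIRKO. Whether the tables were exchanged was not tested and cannot be told from them. The names control library and iFIRKO library stand below for the libraries so labelled, and an exchange would turn every ratio into its inverse and every direction round, including those of the let-7 family, while the values within a library would stay and change only their label.

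Mature sequences were taken from RefSeq (GRCm38.p6) for 9 of 9 members, since the family is defined by its seed and its members differ by so few bases that the counting of reads has to tell them apart. The seed is in capitals, and the members are ordered by their level in the control library.
let-7i-5p: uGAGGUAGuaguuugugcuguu
let-7b-5p: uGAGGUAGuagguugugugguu
let-7c-5p: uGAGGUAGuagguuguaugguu
let-7f-5p: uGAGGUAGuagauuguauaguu
let-7a-5p: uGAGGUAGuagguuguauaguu
let-7g-5p: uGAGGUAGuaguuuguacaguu
let-7d-5p: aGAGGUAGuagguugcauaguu
let-7e-5p: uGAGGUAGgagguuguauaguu
miR-98-5p: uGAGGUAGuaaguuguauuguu

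All 9 sequences were 22 bases long and shared the seed GAGGUAG. Positions are counted from the 5′ end, and substitutions are given as the base of let-7a-5p, the position and the base of the other member. let-7c-5p (A19G), let-7f-5p (G12A) and let-7e-5p (U9G) each differed from let-7a-5p by 1 base. let-7b-5p differed from it by A17G and A19G, let-7g-5p by G12U and U18C, let-7d-5p by U1A and U16C, and miR-98-5p by G11A and A19U. let-7i-5p carried 4 substitutions, G12U, A17G, U18C and A19U. Over the 36 pairs of members, 4 pairs differed by 1 base, 10 pairs by 2 bases and 22 pairs by more, up to 6 bases. How reads were divided between members that differ by 1 base was not stated, so the split between such members is less certain than their sum.

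The annotation places 12 hairpins for these 9 members on 7 chromosomes (GRCm38). Mirlet7d (chr13:48536012-48536114), Mirlet7f-1 (chr13:48537829-48537917) and Mirlet7a-1 (chr13:48538179-48538272) lie on the minus strand within exons of the long noncoding RNA gene 6720427I07Rik. Mirlet7c-2 (chr15:85706603-85706697) and Mirlet7b (chr15:85707319-85707403) lie on the plus strand, with 716 bases between their starts, within exons of the noncoding gene Lncppara. Mirlet7f-2 (chrX:151912346-151912428) and Mir98 (chrX:151913214-151913321) lie on the plus strand in an intron of Huwe1, a ubiquitin ligase gene, with 868 bases between their starts. Mirlet7g (chr9:106178840-106178927) lies in an intron of Wdr82, and Mirlet7i (chr10:122985640-122985724, minus strand) within an exon of the pseudogene D630033A02Rik. The remaining 3 lie near hairpins of the miR-99/100 and miR-125 families, which are Mirlet7a-2 (chr9:41536716-41536811) near Mir100, Mirlet7c-1 (chr16:77599657-77599750) near Mir99a in an intron of Mir99ahg, and Mirlet7e (chr17:17830352-17830444) near Mir125a in an intron of Spaca6. let-7a-5p, let-7c-5p and let-7f-5p each arise from 2 hairpins with the same mature sequence, so their counts cannot be assigned to a locus.

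The control library had a depth of 3817902 counts and the iFIRKO library a depth of 2233498 counts. The deposited value of a miRNA is its share of this depth and is given here as counts per 1000000 (CPM). All 9 members lay far above the floor of 10 counts below which the tables hold a single lowest value. The smallest count was 442, for miR-98-5p in the iFIRKO library. Intervals are 95% intervals from counting error alone, without any spread between mice.

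The first question was how much of the EV-miRNA pool the family made up. The 9 members together held 355066 counts in the control library and 209966 counts in the iFIRKO library. This was 9.30% of the control library (Wilson interval 9.27 to 9.33) and 9.40% of the iFIRKO library (9.36 to 9.44). The ratio of iFIRKO to control was 1.01 (interval 1.005 to 1.016), so the summed share of let-7 was nearly the same in the 2 libraries on the deposited scale. Among the 1592 of 1847 miRNAs with a reference sequence, grouped into 1330 seed families, the let-7 seed family held the second largest share in both libraries. The largest belonged to the family of miR-16-5p, with 26.8% and 19.7% (ratio 0.735). Among matched sequences, the next by share of the control library were those of miR-191-5p (2.84% and 3.52%, ratio 1.24), miR-126a-3p (2.79% and 1.98%, ratio 0.710) and miR-29a-3p (2.49% and 3.04%, ratio 1.22). miR-122-5p, the main miRNA of hepatocytes, was not among the matched sequences. It held 10.9% and 18.7% by itself, more than the let-7 family in both libraries. miR-486b-5p was not among the matched families either. It held 3.24% of the control library and 2.38% of the iFIRKO library (ratio 0.732). In the control library this exceeded the share of the miR-191-5p family. Of the matched families named here, the summed let-7 share had the ratio closest to 1 on the deposited scale. Which family is closest to 1 depends on how the libraries are scaled.

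Marker miRNAs of other cell types did differ between the libraries on the deposited scale. All 7 erythroid markers (arms of miR-144, miR-451a, miR-486a and miR-486b) were lower in the iFIRKO library, and their summed share was 4.75% and 3.22% (ratio 0.679). Several of these are among the miRNAs that put the labels in doubt. All 4 hepatocyte markers (arms of miR-122, miR-192-5p and miR-194-5p) were higher, with a summed share of 12.1% and 20.2% (ratio 1.67). miR-122-5p held most of these counts, at a ratio of 1.71, and the ratios of the others ran from 1.35 to 1.37. With TMM factors (described below), which divide each ratio by 1.81, all 4 would be lower. All 5 leukocyte markers (arms of miR-142a, miR-150-5p, miR-155-5p and miR-223-3p) were lower, with a summed share of 4.86% and 4.21% (ratio 0.866). The counting intervals of miR-142a-5p (0.910 to 1.02) and miR-155-5p (0.781 to 1.01) included 1. No marker was at the floor in either library. The part of these cells in the let-7 values was not tested, and fewer vesicles from a cell type cannot be told apart from less of a miRNA per vesicle.

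Levels within the family covered a wide range (the prefix mmu marks a mouse miRNA). mmu-let-7i-5p had the highest level, with 115041 counts (30132 CPM) in the control library and 67542 counts (30240 CPM) in the iFIRKO library. It was the 4th most abundant of all miRNAs in both. mmu-let-7b-5p followed with 72443 counts (18975 CPM) and 42401 counts (18984 CPM), and mmu-let-7c-5p with 68408 counts (17918 CPM) and 37296 counts (16698 CPM). These 3 members held 72.1% of the family counts in the control library and 70.1% in the iFIRKO library. The middle of the range was formed by let-7f-5p, let-7a-5p and let-7g-5p. mmu-let-7f-5p had 37435 counts (9805 CPM) in the control library and 28576 counts (12794 CPM) in the iFIRKO library. mmu-let-7a-5p had 30618 counts (8020 CPM) and 20173 counts (9032 CPM), and mmu-let-7g-5p had 20122 counts (5270 CPM) and 8205 counts (3674 CPM). The 3 scarcest members were let-7d-5p, let-7e-5p and miR-98-5p. mmu-let-7d-5p had 8267 counts (2165 CPM) and 3983 counts (1783 CPM). mmu-let-7e-5p had 1923 counts (504 CPM) and 1348 counts (604 CPM). mmu-miR-98-5p had 809 counts (212 CPM) and 442 counts (198 CPM). The order of the 9 members was the same in both libraries, and within each library the counting intervals of neighbours in this order did not overlap. The level of let-7i-5p exceeded that of miR-98-5p by a factor of 142 in the control library and 153 in the iFIRKO library.

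**Figure D1:**
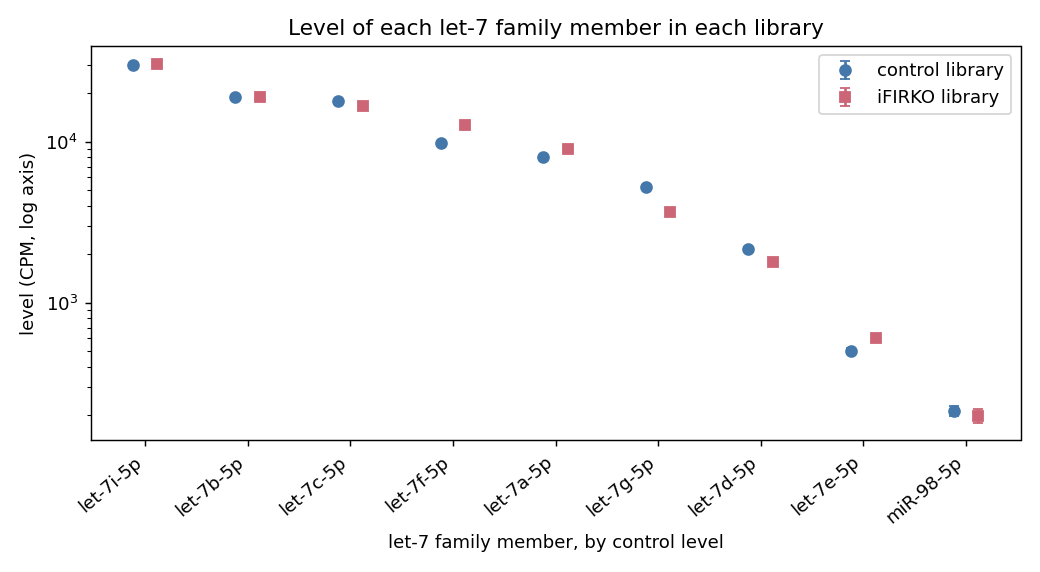
Level of each let-7 family member in CPM (log axis) in the control library (circles) and the iFIRKO library (squares), 1 library per group, with Wilson 95% intervals from counting error that are mostly smaller than the symbols. Levels run from 30132 CPM for let-7i-5p to 212 CPM for miR-98-5p in the control library, and the order is the same in the iFIRKO library.

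Single members differed between the libraries in both directions although their sum hardly did. The most abundant members, let-7i-5p and let-7b-5p, had ratios of iFIRKO to control of 1.004 (interval 0.994 to 1.013) and 1.0005 (0.989 to 1.013), and both intervals included 1. Higher in the iFIRKO library were let-7f-5p, with a ratio of 1.30 (1.28 to 1.33), let-7e-5p, with a ratio of 1.20 (1.12 to 1.29), and let-7a-5p, with a ratio of 1.13 (1.11 to 1.15). Lower were let-7g-5p, with a ratio of 0.697 (0.679 to 0.715), let-7d-5p, with a ratio of 0.824 (0.793 to 0.855), and let-7c-5p, with a ratio of 0.932 (0.920 to 0.944). The ratio of miR-98-5p was 0.934, and its interval of 0.830 to 1.05 included 1. The members at the ends of this range, let-7f-5p and let-7g-5p, differed in their ratios by a factor of 1.87.

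Past the fold limit of 1.5 that the study used, 0 of the 9 members were higher and 0 were lower in the iFIRKO library. Of all 1847 miRNAs, 66.3% were past this threshold in the higher direction and 3.03% in the lower direction. The study describes the opposite balance, with most miRNAs decreased in iFIRKO mice, so these directions carry the same doubt about the labels. They also depend on scaling, since with TMM factors (described below) 388 miRNAs were higher and 360 lower. The control library was 1.71 times as deep, and most miRNAs were scarce (median counts 37 and 47). A miRNA with equal counts, such as miR-1949 (31 and 31), thus had a log2 ratio of 0.77, past 1.5-fold on the deposited scale. Among the 118 most abundant miRNAs, those whose mean count reached 1000 and which include 8 of the members, 2.54% were higher and 9.32% were lower, so members within 1.5-fold were common at this abundance. Fisher's exact test on the recovered counts, with Benjamini-Hochberg adjustment over the 1736 miRNAs that exceeded the floor in each library, called 6 of the 9 members, 3 higher and 3 lower. It called 65.3% of all miRNAs tested (60.5% higher and 4.84% lower) and 83.1% of those whose mean count reached 1000. Such a test speaks of these 2 libraries and not of the genotypes. With both directions together, the share of members it called was near the share of all miRNAs tested. It was below the share of those whose mean count reached 1000. By direction, members were called higher less often and lower more often than all miRNAs tested, and these directions are those of the deposited scale.

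**Figure D2:**
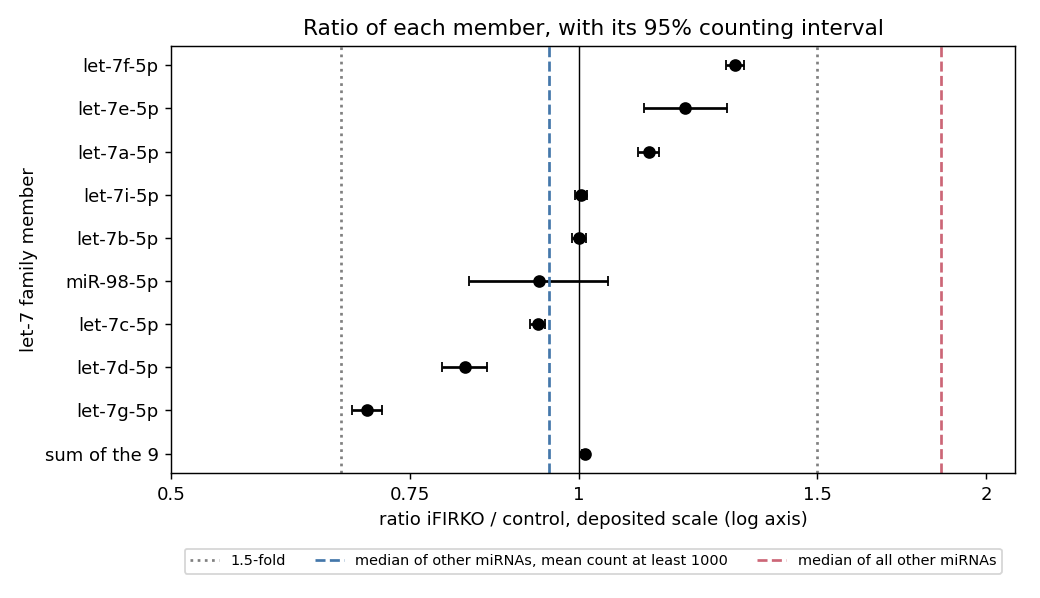
Ratio of iFIRKO to control for each member and for the sum of the 9 members on the deposited scale (log axis), with 95% counting intervals, 1 library per group. Dotted lines mark 1.5-fold and dashed lines the median ratio of the other miRNAs (1.85 for all, 0.950 where the mean count reached 1000). Members run from 0.697 (let-7g-5p) to 1.30 (let-7f-5p), and their sum lies at 1.01.

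Ratios of all miRNAs depended on abundance, and the members were therefore set beside miRNAs of similar abundance. The median log2 ratio over the 9 members was 0.00073, with 5 higher and 4 lower. Over the 1838 other miRNAs the median log2 ratio was 0.89, with 1622 higher and 216 lower. Over the 110 other miRNAs whose mean count reached 1000 the median log2 ratio was -0.07, with 43 higher and 67 lower and quartiles of -0.42 and 0.13. The log2 ratios of let-7a-5p (0.17), let-7e-5p (0.26) and let-7f-5p (0.38) lay above the upper quartile of these miRNAs, and that of let-7g-5p (-0.52) lay below the lower quartile. The other members lay between the quartiles, but miR-98-5p, with a mean count of 625.5, is not of this abundance. Where the mean count reached 100, the lower quartile was -0.089, and miR-98-5p (-0.099) lay just below it.

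**Figure D3:**
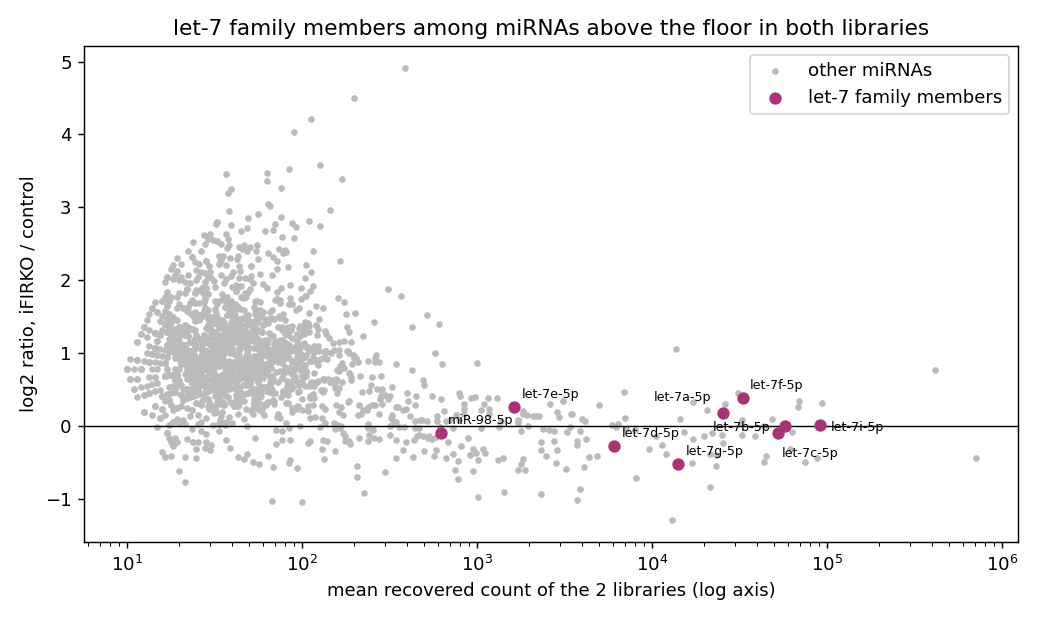
log2 ratio of iFIRKO to control on the deposited scale against the mean recovered count of the 2 libraries (log axis) for the 1736 miRNAs that exceeded the floor in each library, each point being 1 miRNA and 1 library per group. The 9 let-7 family members (large points) lie between -0.52 and 0.38, whereas most miRNAs of low count lie above 0.

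The composition of the family does not depend on how the libraries are scaled to each other. The share of let-7f-5p in the family counts was 10.5% (interval 10.4 to 10.6) in the control library and 13.6% (13.5 to 13.8) in the iFIRKO library, the largest difference in percentage points (3.07). That of let-7a-5p was 8.62% and 9.61%, and that of let-7e-5p 0.542% and 0.642%. In the other direction, the share of let-7g-5p was 5.67% (5.59 to 5.74) and 3.91% (3.83 to 3.99), that of let-7c-5p 19.3% and 17.8%, and that of let-7d-5p 2.33% and 1.90%. The share of let-7i-5p was 32.4% (32.2 to 32.6) and 32.2% (31.97 to 32.4), and that of let-7b-5p was 20.4% (20.3 to 20.5) and 20.2% (20.0 to 20.4), so these intervals overlapped. In all, 4.15% of the family counts would have to change member to turn one composition into the other.

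**Figure D4:**
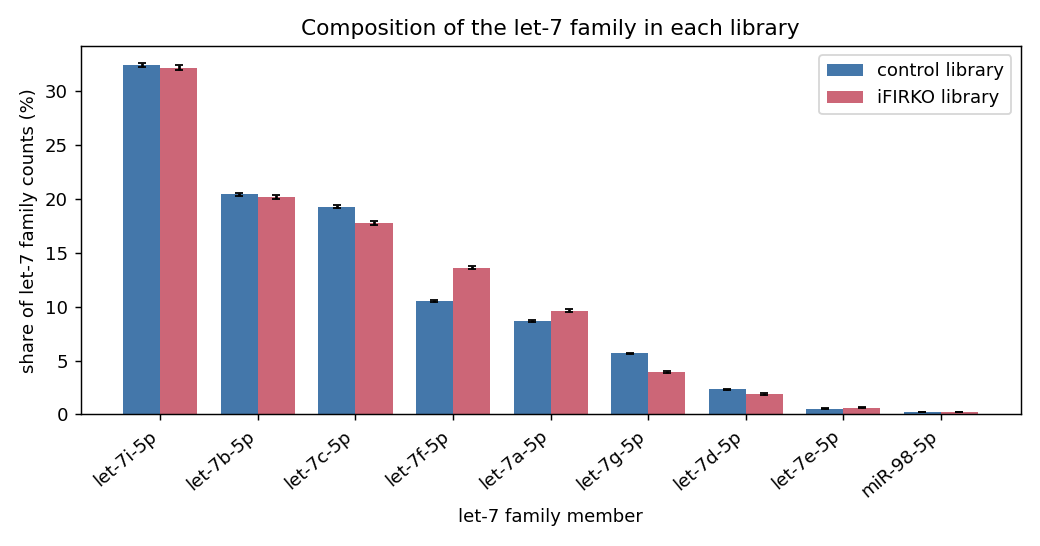
Share of each member in the counts of the let-7 family in percent, in the control library and in the iFIRKO library, 1 library per group, with Wilson 95% intervals from counting error. let-7f-5p makes up 10.5% and 13.6%, let-7g-5p 5.67% and 3.91%, and let-7i-5p 32.4% and 32.2%.

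Members encoded next to each other were compared by the ratio of their counts within each library, which again needs no scaling. For the chromosome 13 hairpins of let-7a, let-7d and let-7f, let-7f-5p outnumbered let-7d-5p 4.53 to 1 in the control library (interval 4.42 to 4.64) and 7.17 to 1 in the iFIRKO library (6.94 to 7.42). let-7a-5p outnumbered let-7d-5p 3.70 to 1 (3.61 to 3.80) and 5.06 to 1 (4.90 to 5.24). Members of a single cluster thus stood in different proportions in the 2 libraries. On the deposited scale let-7a-5p and let-7f-5p were higher and let-7d-5p was lower in the iFIRKO library, whereas with TMM factors all 3 were lower, at 0.623, 0.722 and 0.456. let-7a-5p and let-7f-5p also arise from hairpins elsewhere. For the Huwe1 hairpins, let-7f-5p outnumbered miR-98-5p 46.3 to 1 (43.2 to 49.7) and 64.7 to 1 (58.9 to 71.2). For the chromosome 15 hairpins, let-7b-5p and let-7c-5p were nearly equal, at 1.06 to 1 (1.05 to 1.07) and 1.14 to 1 (1.12 to 1.15). let-7c-5p also arises from Mirlet7c-1 on chromosome 16, so its counts are not those of this cluster alone.

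The 4 pairs of members that differ by 1 base were examined because how their reads were told apart is not stated. let-7a-5p and let-7f-5p (G12A in the sequences above) were both higher in the iFIRKO library, and their summed counts had a ratio of 1.22 (interval 1.21 to 1.24). let-7b-5p and let-7c-5p had a summed ratio of 0.967 (0.959 to 0.976). The count of let-7a-5p relative to let-7c-5p (A19G) was 0.448 (0.442 to 0.454) in the control library and 0.541 (0.532 to 0.550) in the iFIRKO library. That of let-7a-5p relative to let-7e-5p (U9G) was 15.9 (15.2 to 16.7) and 15.0 (14.2 to 15.8), and these intervals overlapped. let-7g-5p and let-7i-5p share G12U and U18C, and yet the ratio was 0.697 for let-7g-5p and 1.004 for let-7i-5p. Their counts stood at 5.72 of let-7i-5p to 1 of let-7g-5p in the control library (5.63 to 5.80) and at 8.23 to 1 in the iFIRKO library (8.05 to 8.42).

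Scaling moved all members together. As the study used miR-148a-3p as a reference for quantitative RT-PCR, its ratio (1.16 on the deposited scale) was set to 1. The summed let-7 ratio was then 0.868, with 2 members higher and 7 lower. With the median of ratios over miRNAs whose mean count reached 100, the summed ratio was 0.841, with 1 member higher and 8 lower. With TMM factors of edgeR, which divide each ratio by 1.81 (a log2 shift of 0.85), the summed ratio was 0.559. This shift is close to the median log2 ratio of all miRNAs (0.88), most of which are scarce. Where the mean count reached 1000, as for 8 of the members, that median was -0.07. How far the scarce miRNAs set the TMM shift was not tested. With TMM factors all 9 members were lower and 8 of them were past 1.5-fold, with let-7f-5p at 0.722 the exception. Of all 1847 miRNAs, 360 were past 1.5-fold lower with these factors. Where the mean count reached 1000, the upper quartile of the other miRNAs was 0.13 before the shift of 0.85. Most miRNAs of this abundance were thus past 1.5-fold lower too, and the count is not particular to let-7. The near equality of the summed share therefore holds for the deposited scale, while the order of the members, from let-7f-5p to let-7g-5p, is the same under each scaling by construction.

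**Figure D5:**
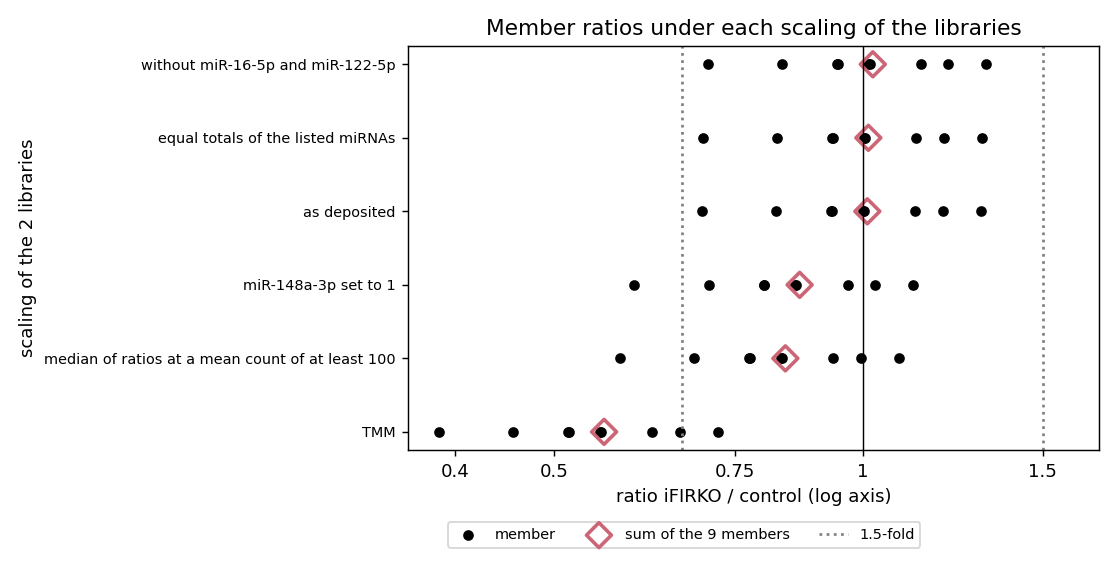
Ratio of iFIRKO to control (log axis) for the 9 members (points) and their sum (diamonds) under 6 scalings of the 2 libraries, 1 library per group, with dotted lines at 1.5-fold. The sum lies at 1.01 as deposited, at 0.868 with miR-148a-3p set to 1, at 0.841 with the median of ratios and at 0.559 with TMM factors.

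The remaining products of these loci were examined last. The 3p arms, the strands that are mostly discarded when the hairpin is loaded, formed 11 entries with a summed share of 0.140% in the control library and 0.176% in the iFIRKO library (ratio 1.25). Of these, 8 were higher and 3 lower in the iFIRKO library, and 4 were past 1.5-fold in the higher direction, where the background is the same 66.3%. Among the members other than let-7a-5p and let-7c-5p, whose 3p arms share an entry, the 5p arm outnumbered the 3p arm least for let-7d, where let-7d-5p stood at 4.27 to 1 (interval 4.07 to 4.49) in the control library and 2.96 to 1 (2.79 to 3.15) in the iFIRKO library. It did so by 852 to 1 (720 to 1016) and 1274 to 1 (974 to 1701) for let-7i, whose intervals overlapped. For let-7b the ratio was 36.8 to 1 (35.1 to 38.5) and 49.9 to 1 (46.7 to 53.5). The largest difference was that of let-7f, where let-7f-5p stood at 430 to 1 (349 to 537) in the control library and 67.6 to 1 (61.4 to 74.5) in the iFIRKO library against the sum of let-7f-1-3p and let-7f-2-3p. For let-7e the ratio was 31.5 to 1 (24.4 to 41.4) and 17.3 to 1 (13.7 to 22.0), and for miR-98 it was 7.93 to 1 (6.45 to 9.84) and 8.50 to 1 (6.37 to 11.6). For let-7g, whose 3p arm had 31 and 22 counts, it was 649 to 1 (457 to 956) and 373 to 1 (246 to 595). The ratio of let-7g-3p was 1.21 with an interval of 0.669 to 2.16, which is too wide to set it apart from the ratio of let-7g-5p. The neighbouring miR-99a-5p, miR-99b-5p, miR-100-5p, miR-125a-5p and miR-125b-5p had ratios from 0.905 (miR-125b-5p) to 1.22 (miR-99b-5p). Of these 5 miRNAs, 4 were higher, 1 was lower and 0 were past 1.5-fold.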

How the data were processed

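Small RNA of serum EVs was made into libraries with the QIAseq miRNA Library Kit and sequenced on a NextSeq500 by the authors, 1 library per group. The reads were analysed by the authors on the GeneGlobe Data Analysis Center. The processing notes name the build mm10, and the aligner, the miRNA release and the use of molecular identifiers are not given in the sources used here. The deposited signal is a share of a library total. The depth was taken as the whole number, near the inverse of the lowest value, that brought the largest values closest to whole counts. Multiplied by this depth, each value came out whole within 0.01 counts (100% in each library), so whole counts were recovered from the deposited signal. The listed miRNAs held 99.3% (control) and 99.1% (iFIRKO) of the depth. The lowest value, given to 76 and 35 miRNAs, was treated as a floor under 10 counts.

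The main measure was the ratio of deposited values with no pseudocount. Its 95% interval came from the Clopper-Pearson interval of the iFIRKO share of both counts, and shares of a library have Wilson intervals. Both cover counting error only and take each count as an independent molecule. If the counts are reads that are not independent, these intervals are too narrow. The lists comprised all 9 members, miRNAs with the let-7 seed, 3p arms, cluster partners and cell type markers. They also held the 5 largest seed families among miRNAs with a reference sequence. The last list was the 5 abundant miRNAs (mean count 1000 or more) nearest in ratio to the summed family. The members and lists were chosen with earlier results of these data known. Alternatives were 5 scalings, 1 CPM added, filters at a mean count of 100 and 1000, a 2-fold threshold and other member sets. Fisher's exact test (threshold 0.05), the limit to miRNAs above the floor and the omission of let-7f-5p and let-7g-5p were chosen after seeing the data. Intervals and the recovery of counts were tested on simulated data. Python 3.11.15, scipy 1.17.1, R 4.3.3 and edgeR 4.0.16 were used. Hairpin positions came from RefSeq (GRCm38.p6) and overlapping genes from GENCODE M21.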

Additional observations from a re-analysis of the deposited data

How the results depend on the processing

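No paired analysis was possible because there was only 1 library in each group, and for the same reason none could be left out. The summed let-7 ratio was 0.841 with the median of ratios, 0.559 with TMM factors, 0.868 with miR-148a-3p set to 1 and 1.02 without miR-16-5p and miR-122-5p in the denominator. It stayed within its counting interval with equal totals, with all miRNAs of the let-7 seed and without let-7i-5p. The median log2 ratio over the members was -0.27, -0.85 and -0.22 with the first 3 of these scalings. Without miR-16-5p and miR-122-5p the summed share was 14.8% (control) and 15.1% (iFIRKO), and over the listed miRNAs alone 9.36% and 9.49%.

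The count of members past 1.5-fold was 1 lower with the median of ratios, 1 lower with miR-148a-3p and 8 lower with TMM factors. Fisher's test called 3 higher and 3 lower. Of all miRNAs, 388 were higher and 360 lower with TMM factors, 113 lower with the median of ratios, 102 lower with miR-148a-3p, and 794 higher at 2-fold. The filter at a mean count of 100 kept 145 higher and 18 lower, that at 1000 kept 3 and 11, and the limit to miRNAs above the floor in both libraries left 21 lower. Scalings apply 1 factor to every miRNA, and filters test fewer miRNAs. Of the 54 single-member ratios under alternatives, 25 stayed within their counting interval. All 18 shares within the family did so too, but their only alternative added let-7k and miR-1961. These are too scarce to move a share, so this is no check of the composition. The depth limits miR-98-5p most among the members.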

Other observations

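Other miRNAs of the tables carry the let-7 seed or the let-7 name. let-7k and miR-1961 had the seed GAGGUAG in RefSeq and are shorter than the members. They are shown because they share the seed and are scarce.
let-7k: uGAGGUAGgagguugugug
miR-1961: uGAGGUAGuaguuagaa
let-7j: uGAGGUAUuaguuugugcuguuau

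let-7k had 127 counts (33.3 CPM) in the control library against 90 counts (40.3 CPM) in the iFIRKO library, with a ratio of 1.21 (interval 0.914 to 1.60). miR-1961 had 66 counts (17.3 CPM) against 28 counts (12.5 CPM), with a ratio of 0.725 (0.449 to 1.14). Both intervals included 1. let-7j has the let-7 name but differs from let-7a-5p within the seed by G8U, with capitals above marking its own bases 2 to 8. It had 483 counts (127 CPM) against 207 counts (92.7 CPM), with a ratio of 0.733 (0.619 to 0.864).

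Among miRNAs whose mean count reached 1000, the 5 nearest to the summed let-7 family in their log2 ratio over the 2 libraries were miR-29c-3p (ratio 1.01), miR-29b-3p (1.004), miR-320-3p (0.999), miR-181a-5p (1.02) and the entry miR-199a-3p/miR-199b-3p (1.03). This likeness rests on 2 libraries only.

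Of the 3p arms, let-7f-2-3p, from the Huwe1 hairpin Mirlet7f-2, had 28 counts in the control library and 369 counts in the iFIRKO library, while let-7f-1-3p, from the chromosome 13 hairpin Mirlet7f-1, had 59 and 54 counts (ratio 1.56, interval 1.06 to 2.30). let-7a-2-3p had 388 and 651 counts (ratio 2.87, interval 2.53 to 3.26). let-7b-3p had 1971 and 849 counts (ratio 0.736, interval 0.679 to 0.798). These arms are named after their values were seen.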
